A study of Homo sapiens with 8 samples.

Results

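The genes described here encode the histones, the proteins that package DNA. They were taken by symbol from an expression array study of 2 human chordoma cell lines: every gene whose symbol begins with H1-, H2AC, H2BC, H3C or H4C, or with the older HIST1H, HIST2H, HIST3H or HIST4H, and that has at least 1 probe set carrying no other symbol. The rule gave 34 of the 22395 genes on the array: 10 linker histone (H1) genes, 8 H2A, 14 H2B, 1 H3 and 1 H4. Of these, H1-9P, H2AC2P and H2BC20P are annotated as pseudogenes. Most H3 and H4 copies are named only in probe sets that carry several symbols, and these are given apart, near the end.

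Chordoma is a tumour of the axial skeleton with features of the notochord. U-CH1 and MUG-Chor1 are lines grown from such tumours, and here they were kept as monolayers on gelatin in medium with fetal bovine serum. Each line had 3 control arrays from cells without added cytokine and 1 array from cells given 10 ng/mL human recombinant TNF-α, an inflammatory cytokine, in 3 additions a week for 1 week. The labels name no genetic change in any group. Nothing in the sources used here says whether the controls of a line were separate cultures, so the p-values measure the spread between these arrays, which may be technical, and the TNF arrays have no replicate. The values are RMA intensities taken as log2, and array medians lay between 2.52 and 2.63. The chordoma marker TBXT, a notochord transcription factor, read 7.51 to 9.75 on the 8 arrays, and so lay on each of them above 2.57, the overall median of the deposited table. Of 7 leukocyte markers on the array, PTPRC and CD3E, which define leukocytes and T cells, were below 2.57 on every array. CD68 (7.67 to 9.17) and CSF1R (3.01 to 3.67) were above it on all 8, CD14 on 6, ITGAM on 4 and LYZ on 1.

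Core histones H2A, H2B, H3 and H4 form the nucleosome around which DNA winds, and H1 binds where the DNA enters and leaves it. Most of their genes lie in clusters, are transcribed in S phase while DNA is copied, and give mRNAs that end in a stem-loop in place of a poly(A) tail. NPAT switches on these genes, SLBP binds the stem-loop, and some members also make polyadenylated mRNA. Variant histones such as H1-10 (H1x) come from genes outside the clusters and do not depend on S phase.

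Promoters of the members that the comparisons turned on are printed here, with that of H2BC15, a neighbour of H2BC14 in the same cluster that was not called between the lines. Each is the 250 bases before the start of the gene, 5′ to 3′ on the strand of the gene, from RefSeq (GRCh38.p14). Capitals mark matches to TATAAA (the TATA box), CCAAT (the CCAAT box) and ATTTGCAT (the octamer bound by POU factors), searched on both strands, so that TTTATA and ATTGG are matches on the other strand. H2BC14 lay at chr6:27814772-27815021 (+), H2BC15 at chr6:27838319-27838568 (+), H2BC21 at chr1:149886683-149886932 (-), H3C13 at chr1:149813694-149813943 (-) and H1-10 at chr3:129316287-129316536 (-).
H2BC14: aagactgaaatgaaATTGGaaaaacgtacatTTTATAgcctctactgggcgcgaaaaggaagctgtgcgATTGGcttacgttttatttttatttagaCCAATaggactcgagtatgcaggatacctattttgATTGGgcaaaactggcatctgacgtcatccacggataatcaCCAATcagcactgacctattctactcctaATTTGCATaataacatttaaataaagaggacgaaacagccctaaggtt
H2BC15: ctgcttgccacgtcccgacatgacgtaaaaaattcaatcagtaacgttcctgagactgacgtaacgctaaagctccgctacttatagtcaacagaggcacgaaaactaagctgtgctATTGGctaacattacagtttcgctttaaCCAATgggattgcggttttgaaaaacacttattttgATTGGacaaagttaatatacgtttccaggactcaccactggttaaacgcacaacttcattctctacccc
H2BC21: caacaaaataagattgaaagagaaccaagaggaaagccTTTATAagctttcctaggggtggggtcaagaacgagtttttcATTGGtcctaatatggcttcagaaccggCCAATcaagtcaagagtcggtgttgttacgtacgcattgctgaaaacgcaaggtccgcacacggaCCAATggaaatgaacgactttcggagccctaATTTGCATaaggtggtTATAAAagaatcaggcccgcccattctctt
H3C13: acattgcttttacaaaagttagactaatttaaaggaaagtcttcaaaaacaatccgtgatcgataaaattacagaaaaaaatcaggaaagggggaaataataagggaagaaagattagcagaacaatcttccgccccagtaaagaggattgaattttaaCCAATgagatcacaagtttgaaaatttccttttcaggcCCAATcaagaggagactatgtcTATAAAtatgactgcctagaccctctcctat
H1-10: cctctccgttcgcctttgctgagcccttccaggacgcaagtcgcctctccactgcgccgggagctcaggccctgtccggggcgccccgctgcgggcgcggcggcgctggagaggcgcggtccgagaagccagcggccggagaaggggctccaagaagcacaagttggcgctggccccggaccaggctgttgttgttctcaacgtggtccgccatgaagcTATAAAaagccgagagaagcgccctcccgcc

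Promoter sequence was held for 30 of the 34 members. TATAAA was found in 20 of the 30 (66.7%), against 11.1% of 27305 promoters of the same length, CCAAT in 28 (93.3%) against 33.0%, and ATTTGCAT in 14 (46.7%) against 1.66%. The octamer was in 9 of 13 H2B and 5 of 6 H2A promoters and in 0 of 9 H1 promoters. It was also in 5 of the 8 promoters of members higher in MUG-Chor1 controls and in 7 of the 15 of members not called between the lines. Several H2A and H2B genes face away from each other across one shared stretch: the windows of H2AC14 and H2BC14 overlap by 244 bases and those of H2AC20 and H2BC21 by 235, so each of these pairs shows largely the same sequence, and the motifs counted for the 2 genes are not independent. A match is a description of the letters and not evidence of binding.

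**Figure D1:**
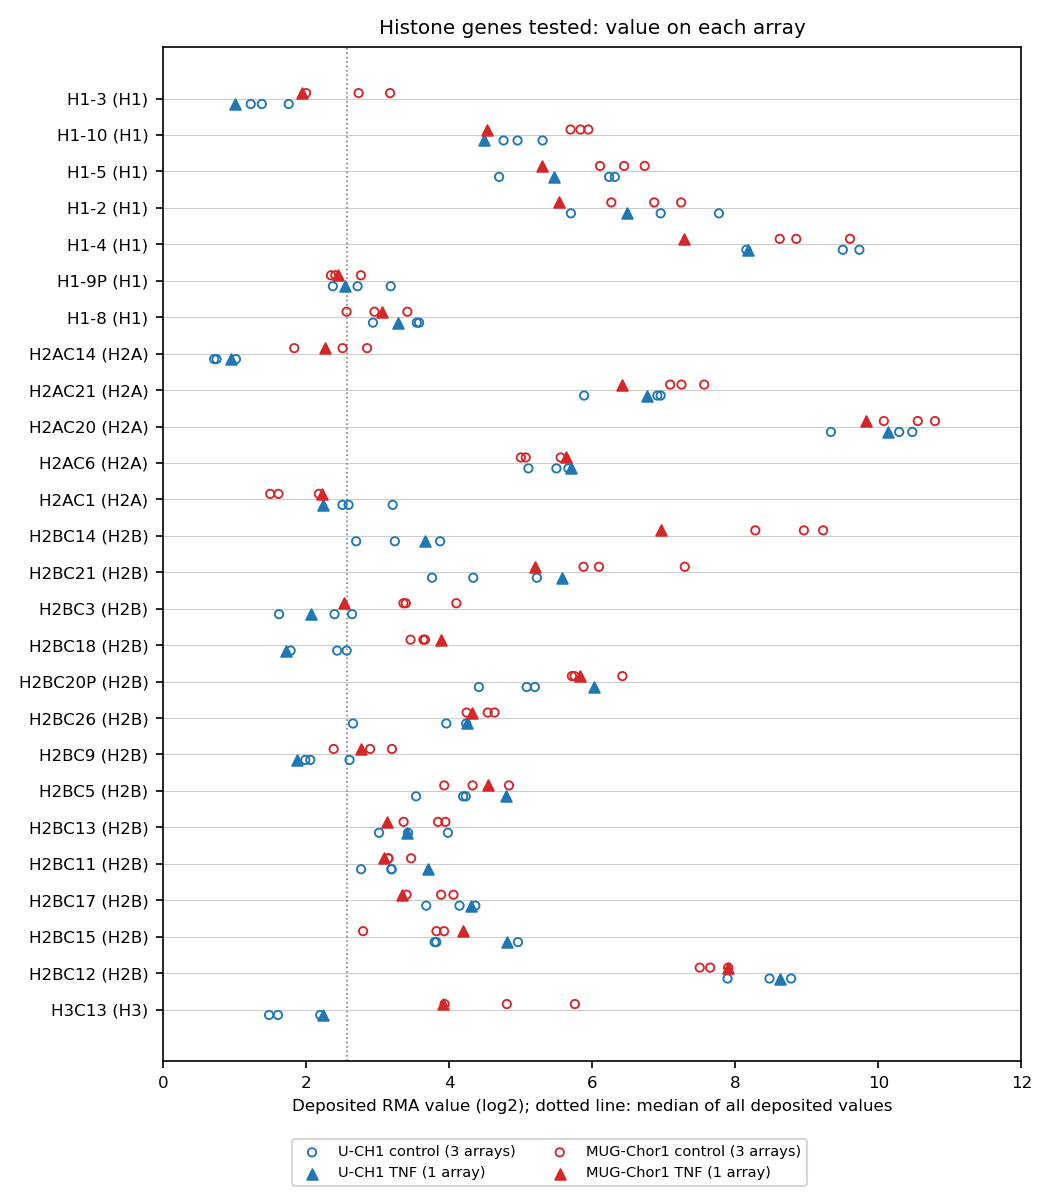
Deposited RMA values (x axis, log2) of the 26 histone genes that passed the filter, 1 row per gene, with open circles for the 3 controls of each line and triangles for the TNF array. The dotted line is the filter at 2.57; H2BC14 and H3C13 show the widest gaps between the lines, and the MUG-Chor1 TNF array lies left of its controls for H1-10, H1-2, H1-4 and H1-5.

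Among the 34 members, 26 were above 2.57 on at least 1 array and were tested: 7 H1, 5 H2A, 13 H2B and the H3 gene. The other 8 were H1-1, H1-6, H1-7, H2AC12, H2AC25, H2AC2P, H2BC1 and H4C7, and no array read any of them above 2.57. Among these, H1-6 and H1-7 are testis linker histones, and H2BC1 is the testis H2B gene. Levels of different genes are not compared, because each probe set has its own brightness.

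The first comparison asked how the control lines differ. In 9 of the 26 genes tested the level was higher in MUG-Chor1 controls than in U-CH1 controls, and in 1, H2AC1, it was lower (limma, adjusted p under 0.05). Of all genes tested, 18.9% were called in this comparison, 10.3% upwards and 8.57% downwards. By class, 2 of 7 H1 genes, 1 of 5 H2A genes, 5 of 13 H2B genes and the single H3 gene were higher. The median difference was 0.23 over all 34 members, against -0.05 over all genes on the array. H1-3, H2AC14, H2BC18 and H3C13 passed the filter in MUG-Chor1 only and H2AC1 in U-CH1 only, so their values in the other line are dim, and they are given here as log2 differences of the deposited values with no fold. All 5 were also called with no filter (adjusted p = 0.0251, 0.00344, 0.00403, 0.00107 and 0.0264, in the order named). Among the 21 members above the filter in both lines 5 were called, against 18.9% of the 15297 such genes.

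H2BC14, a replication-dependent H2B gene on chromosome 6, had the widest gap. It read 3.87, 3.24 and 2.70 in U-CH1 controls and 8.28, 9.23 and 8.96 in MUG-Chor1 controls. Every MUG-Chor1 control was far above every U-CH1 control, and the gap was several times the spread within a line. The lowest U-CH1 value, 2.70, lay just above the filter, so the fold given next is approximate. The means were 3.27 ± 0.59 and 8.82 ± 0.49 (SD, n = 3 each), a difference of 5.55 on the log2 scale (SE 0.32), or 46.9-fold (limma, adjusted p = 2.37e-06). H2AC14, the H2A gene that shares its promoter stretch, read 0.75, 1.02 and 0.71 in U-CH1 and 2.51, 2.85 and 1.83 in MUG-Chor1. The groups did not overlap, although 1 of the 6 values was above the filter at 2.57 and the others were in the dim range of the array (log2 1.57, SE 0.26, adjusted p = 0.00212). The nearest tested members on either side, H2BC13 and H2BC15, were not called, with differences of 0.24 (adjusted p = 0.591) and -0.68 (adjusted p = 0.245).

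H3C13, an H3 gene in the chromosome 1 cluster, read 1.61, 1.48 and 2.20 in U-CH1 and 3.94, 5.76 and 4.81 in MUG-Chor1. The lines did not overlap, and all 3 U-CH1 values lay under 2.57. The means were 1.76 ± 0.38 and 4.83 ± 0.91 (SD, n = 3 each), a difference of 3.07 on the log2 scale (SE 0.39, adjusted p = 0.000433). H3C13 has near-identical copies, H3C14 and H3C15, and the probe set that carries all 3 symbols differed by 0.55 (adjusted p = 0.411), so the copies' probe sets do not give one answer.

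H2BC21, an H2B gene of the chromosome 1 cluster known to give polyadenylated as well as stem-loop mRNA, read 4.34, 3.76 and 5.23 in U-CH1 and 6.09, 7.29 and 5.88 in MUG-Chor1. The lowest MUG-Chor1 control was above the highest U-CH1 control (3.95-fold, log2 1.98, SE 0.42, adjusted p = 0.00797). Its divergent partner H2AC20, an H2A gene, read 10.48, 9.34 and 10.29 against 10.08, 10.79 and 10.55. Those groups overlapped and the difference of 0.44 was not called (adjusted p = 0.372). H2BC21 was the 1 member called between the lines among the 6 tested of a list of histone genes with polyadenylated transcripts, which also held H1-2, H2AC6, H2BC5, H2BC11 and H2BC12.

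A further 4 H2B and H1 genes were higher in MUG-Chor1 by smaller amounts. H2BC3 read 2.40, 2.64 and 1.62 against 3.36, 4.10 and 3.39 (log2 1.40, adjusted p = 0.00856), with no overlap. Its U-CH1 values of 2.40 and 1.62 lay under the filter at 2.57, so no fold is given. H2BC18 read 2.43, 2.57 and 1.78 against 3.64, 3.66 and 3.46 (log2 1.33, adjusted p = 0.00293), but its other probe sets differed by -0.42 and 0.43, and the mean of all 3 was not called (0.45, adjusted p = 0.132). H1-3, a replication-dependent linker histone, read 1.38, 1.23 and 1.76 against 2.00, 3.17 and 2.73, so that the lines were close at their nearest values (log2 1.18, adjusted p = 0.0173). The pseudogene H2BC20P read 4.42, 5.08 and 5.20 against 5.75, 6.42 and 5.72 (2.09-fold, adjusted p = 0.0201).

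H1-10, the linker variant made outside S phase, read 5.31, 4.96 and 4.76 in U-CH1 controls and 5.95, 5.84 and 5.70 in MUG-Chor1 controls. The lines lay close together but did not overlap, and the MUG-Chor1 values were tight (5.01 ± 0.28 against 5.83 ± 0.12, SD, n = 3 each; 1.76-fold, adjusted p = 0.0187). In RefSeq the antisense gene H1-10-AS1 borders H1-10 on the other strand. H2AC1, a testis H2A gene, was the exception in direction, at 2.59, 3.21 and 2.51 in U-CH1 and 1.50, 2.18 and 1.61 in MUG-Chor1 (log2 -1.01, adjusted p = 0.0203). Its values were near the filter in one line and under it in the other.

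**Figure D2:**
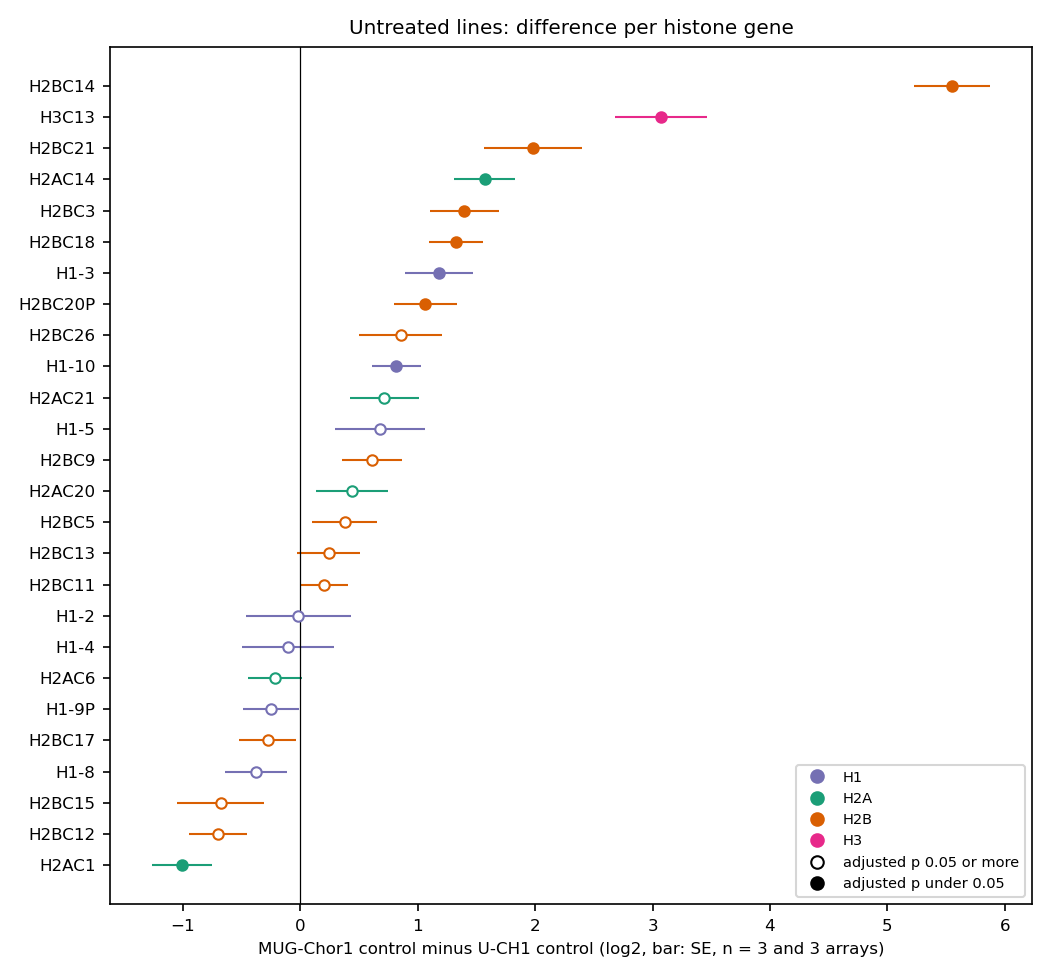
Difference between MUG-Chor1 and U-CH1 controls (x axis, log2, MUG-Chor1 minus U-CH1, 3 arrays each) for each of the 26 histone genes tested, coloured by class, with bars for the SE from limma and filled points for adjusted p under 0.05. H2BC14 (5.55) and H3C13 (3.07) lie farthest right, H2AC1 (-1.01) is the called gene left of 0, and H1-2 (-0.02) and H1-4 (-0.11) lie near 0.

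The main somatic linker histones other than H1-3 and H1-10 did not separate the lines. H1-4 read 9.74, 8.16 and 9.50 against 8.85, 9.61 and 8.62, and H1-2 read 6.96, 5.70 and 7.77 against 6.27, 6.87 and 7.24. Both overlapped fully, with differences of -0.11 for H1-4 (95% interval -0.98 to 0.77, adjusted p = 0.890) and -0.02 for H1-2 (adjusted p = 0.986). H1-5 differed by 0.68 (adjusted p = 0.265). Over the 16 tested members that were not called, differences ran from -0.70 for H2BC12 to 0.85 for H2BC26. Without a test, 11 of the 26 genes had all MUG-Chor1 controls above all U-CH1 controls (18.1% of all genes tested did), 1 had the reverse (18.2%) and 14 overlapped. Of the 11, H1-3, H2AC14, H2BC18 and H3C13 passed the filter in MUG-Chor1 only. The 1 with the reverse, H2AC1, passed it in U-CH1 only. For these genes the filter itself favoured the direction seen.

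By position, 4 of the 7 tested members on chromosome 1 were higher in MUG-Chor1, H2BC18, H2BC20P, H2BC21 and H3C13, and 4 of the 16 on chromosome 6, H1-3, H2AC14, H2BC3 and H2BC14. Of all genes tested, 10.3% were called upwards. Among these members H2BC18, H3C13, H1-3 and H2AC14 passed the filter in MUG-Chor1 only, and the mean of the H2BC18 probe sets was not called. H2AC1, also on chromosome 6, was lower. Whether copy number of either region differed between the lines was not tested.

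U-CH1 control 2 read low for this gene family. It was the lowest U-CH1 control for 15 of the 26 genes, against 37.3% of all genes tested, and the median of its differences from the mean of the U-CH1 controls was -0.30 over the 26, against 0.16 and 0.24 on the other two. The same array stood at -0.30 for 25 genes of G1/S phase and DNA replication and at -0.31 for 14 genes of G2/M, against -0.03 for all genes tested. In MUG-Chor1 these lists did not move together in this way. On MUG-Chor1 controls 1, 2 and 3 the histone medians were -0.21, 0.31 and -0.09. The G1/S medians there were -0.37, 0.05 and 0.28, and the G2/M medians -0.09, -0.48 and 0.70. The part of the cell cycle in the histone values was not tested. Calls changed when single controls were left out. H1-10 was not called without U-CH1 control 2 (adjusted p = 0.0519) or control 3 (0.0610), or without MUG-Chor1 control 1 (0.0764) or control 2 (0.0614). H1-3 was not called without U-CH1 control 1 (0.0648) or 2 (0.0660) or MUG-Chor1 control 2 (0.0638). H2AC1 lost its call without U-CH1 control 2 (0.0685) or MUG-Chor1 control 1 (0.0857), and H2BC20P without U-CH1 control 1 (0.0771) or MUG-Chor1 control 2 (0.0789). Leaving out U-CH1 control 2 instead added H2BC12, lower in MUG-Chor1 by 0.95 (adjusted p = 0.0228; 0.0760 with all arrays). H2AC14, H2BC3, H2BC14, H2BC18, H2BC21 and H3C13 kept their calls in each of these 6 fits.

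The second comparison asked what TNF-α did in U-CH1. Of the 26 genes tested 0 were called, against 1.27% of all genes tested, and 2 rises and 0 falls had an unadjusted p under 0.05. The median difference was 0.08 over the 34 members and 0.01 over all genes on the array. The TNF array was above all 3 controls for 7 of the 26 genes (30.8% of all genes tested), below them for 5 (23.4%) and among them for 14.

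The 2 genes with the smallest p were H2B members. H2BC20P read 6.02 with TNF-α against 4.42, 5.08 and 5.20 (log2 1.12, SE 0.38, limma adjusted p = 0.272), and H2BC11 read 3.71 against 3.20, 2.77 and 3.19 (0.66, adjusted p = 0.448). Both TNF values lay above the controls. H2BC21 was likewise above its controls, at 5.58 against 4.34, 3.76 and 5.23, a difference of 1.14 (adjusted p = 0.543). The H2B genes had a median difference of 0.39 over the 13 tested, with 9 higher and 4 lower. All 7 tested H1 genes had a lower TNF value than the control mean, with a median of -0.33. Over all 16986 genes tested the median was 0.04, with 9123 higher and 7863 lower. None of these H1 differences was called: H1-4 read 8.18 against 9.74, 8.16 and 9.50 (-0.95, 95% interval -2.19 to 0.29, adjusted p = 0.620), and H1-10 read 4.48 against 5.31, 4.96 and 4.76 (-0.53, adjusted p = 0.580). For H1-4 the TNF value lay next to control 2. The TNF value was within the controls' range for H1-2, H1-4, H1-5, H1-8 and the pseudogene H1-9P.

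The third comparison was TNF-α in MUG-Chor1. H1-10 fell 2.47-fold, and it was 1 call among 26, against 2.88% of all genes tested (1.41% downwards). It read 5.95, 5.84 and 5.70 in the controls and 4.52 with TNF-α. The TNF value was more than 1 log2 unit below the lowest control (log2 -1.30, SE 0.29, 95% interval -1.94 to -0.66, limma adjusted p = 0.0399). The call was lost without U-CH1 control 2 (adjusted p = 0.0597), MUG-Chor1 control 1 (0.123) or MUG-Chor1 control 2 (0.0971), and when only the 4 MUG-Chor1 arrays were fitted (0.0613).

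In the same array the somatic H1 genes of the chromosome 6 cluster also had values under all their controls. H1-4 read 7.29 against 8.85, 9.61 and 8.62 (log2 -1.74, adjusted p = 0.172). H1-2 read 5.54 against 6.27, 6.87 and 7.24 (-1.25, adjusted p = 0.469). H1-5 read 5.30 against 6.11, 6.73 and 6.45 (-1.13, adjusted p = 0.440). Each was thus below its lowest control, and none of these differences was called. H1-3 read 1.95, next to its lowest control of 2.00 (-0.69, adjusted p = 0.585). The median over the 7 tested H1 genes was -1.13, with 6 lower, against 0.06 over all 16986 genes tested, of which 7357 were lower.

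Among the core histones H2BC14 read 6.96 with TNF-α against 8.28, 9.23 and 8.96. That value was below all MUG-Chor1 controls and above every U-CH1 array (log2 -1.87, SE 0.46, adjusted p = 0.0610). It was called with array weights (adjusted p = 0.0401), without U-CH1 control 3 (0.0479) and without MUG-Chor1 control 1 (0.0497). H2BC3 read 2.52 against 3.36, 4.10 and 3.39 (-1.09, adjusted p = 0.284), H2BC21 5.21 against 6.09, 7.29 and 5.88 (-1.22, adjusted p = 0.442) and H3C13 3.91 against 3.94, 5.76 and 4.81 (-0.92, adjusted p = 0.591). All 3 lay under their controls, H3C13 only just. Of the H2A genes, H2AC21 read 6.41 against 7.09, 7.57 and 7.25 (-0.89, adjusted p = 0.407), and H2AC14, the divergent partner of H2BC14, read 2.27 within its controls (-0.13, adjusted p = 0.953). In all, the MUG-Chor1 TNF array was below all controls for 14 of the 26 genes (23.9% of all genes tested), above them for 5 (35.3%) and among them for 7.

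**Figure D3:**
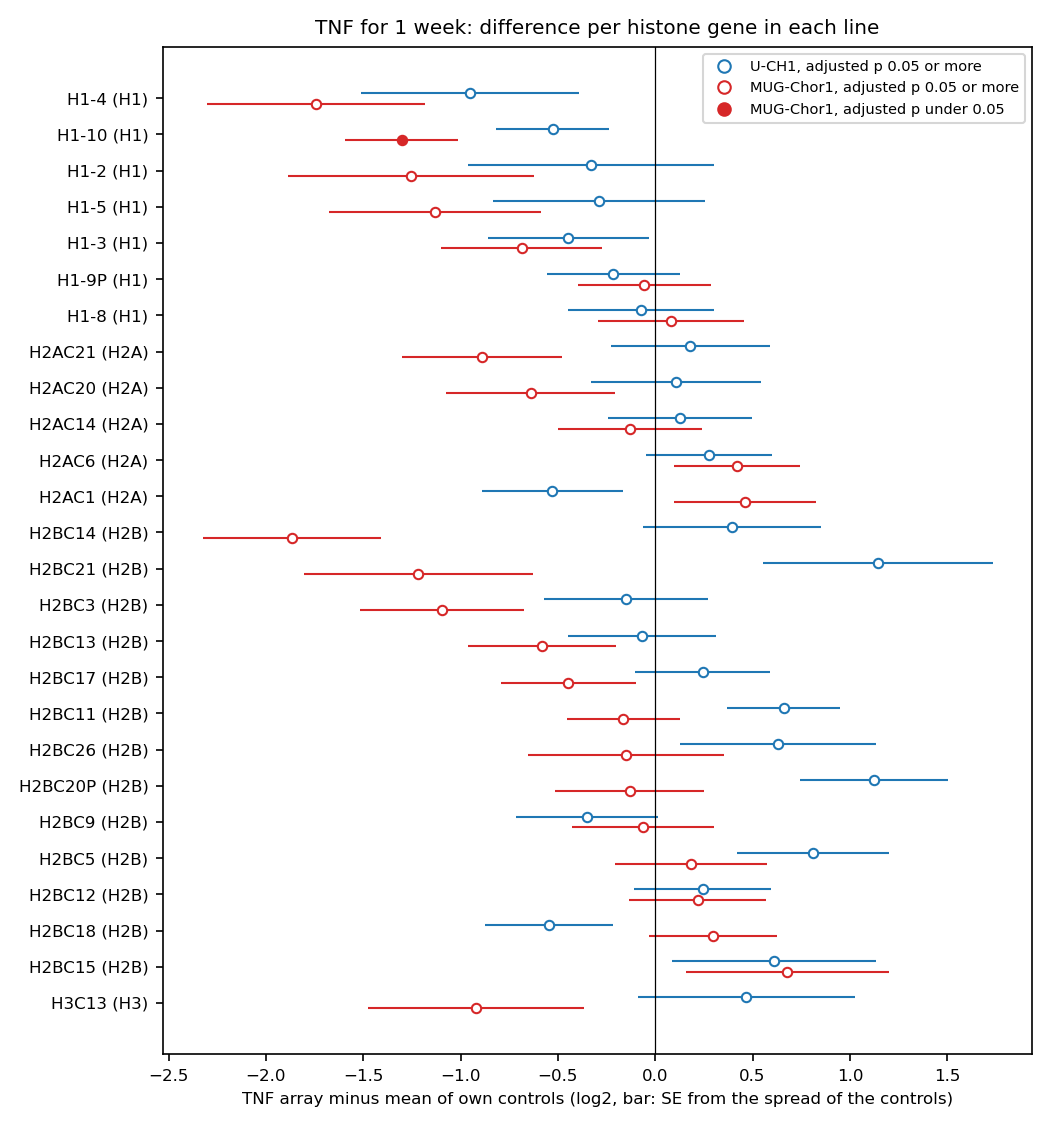
TNF array minus the mean of its own line's controls (x axis, log2) for the 26 histone genes tested, 1 row per gene, with U-CH1 in blue, MUG-Chor1 in red, bars for the SE from the spread of the controls and a filled point for adjusted p under 0.05. All 7 H1 genes lie left of 0 in U-CH1 and 6 do in MUG-Chor1, H2BC21 lies on opposite sides of 0 in the lines (1.14 and -1.22), and H1-10 (-1.30) in MUG-Chor1 is the 1 filled point.

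Other gene groups moved on the MUG-Chor1 TNF array. Genes of G2/M had a median difference of -1.15 there, with 10 of 14 lower at an unadjusted p under 0.05 and 0 called, while the 25 genes of G1/S and DNA replication had a median of -0.01 and 0 called. In U-CH1 the medians were -0.01 and 0.03. Of 10 chordoma markers 6 were called lower in MUG-Chor1 with a list median of -2.10. In U-CH1 0 were called, although the list median was -0.64. Across both lines 3 of the 10 were called lower. These were ACAN (-2.43, limma adjusted p = 0.0482), KRT19 (-2.05, adjusted p = 0.0147) and TBXT (-1.30, adjusted p = 0.0344). Of 7 tested fibroblast markers 3 rose in MUG-Chor1: FAP from 1.98, 2.29 and 1.63 to 5.71, LUM and DCN. The list median of the fibroblast markers was -0.07 there, within the -0.33 to 0.32 of the MUG-Chor1 controls, whereas the chordoma list stood at -0.13 to 0.03 on those controls. Among 4 endothelial markers 1, KDR, fell there, and of 5 tested leukocyte markers 0 were called in either line alone. Across both lines 2 of those 5 rose, CD68 by 0.84 (adjusted p = 0.0485) and ITGAM by 0.83 (adjusted p = 0.0448), and the leukocyte list median was 0.68 in U-CH1, with 3 higher at an unadjusted p under 0.05, and -0.02 in MUG-Chor1. The part of these shifts in the histone values was not tested. In bulk RNA, fewer cells of a kind and less RNA per cell cannot be told apart.

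**Figure D4:**
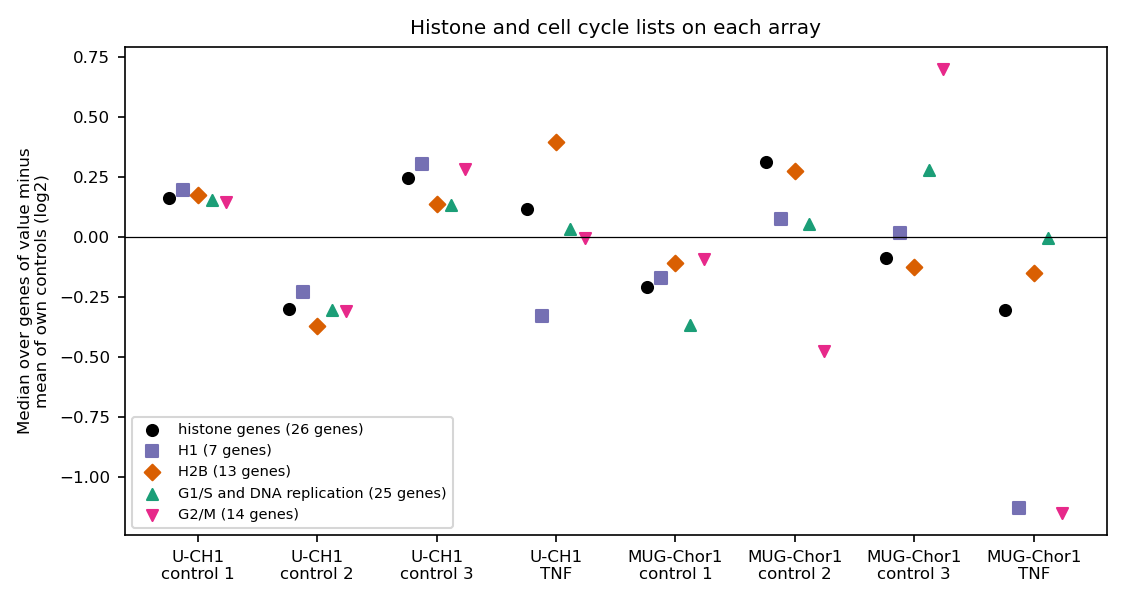
Median over genes of the difference from the control mean of the same line (y axis, log2) on each of the 8 arrays, for the 26 tested histone genes, their H1 and H2B members, the G1/S and DNA replication genes and the G2/M genes. U-CH1 control 2 is below 0 for every list shown, and the MUG-Chor1 TNF array stands at -0.31 for histone genes, -1.13 for H1, -0.01 for G1/S genes and -1.15 for G2/M genes, whose MUG-Chor1 controls spread from -0.48 to 0.70.

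Across both lines, in an additive model of line and TNF-α, 0 of the 26 genes were called, against 2.48% of all genes tested, and 0 rises and 2 falls had an unadjusted p under 0.05. These were H1-10 (log2 -0.91, SE 0.23, adjusted p = 0.0635) and H1-4 (-1.35, SE 0.40, adjusted p = 0.118). H1-4 was called without U-CH1 control 2 (-1.60, adjusted p = 0.0264). H1-10 and H1-3 were the 2 genes whose TNF array was below all controls in both lines, a pattern that 8.85% of all genes tested had. In 5 of the 26, H2AC1, H2BC11, H2BC18, H2BC21 and H3C13, it was outside all controls in both lines but in opposite directions, as it was for 9.63% of all genes tested. The U-CH1 and MUG-Chor1 TNF effects were also set against each other: the difference was called for 0 of the 26 genes, against 0.530% of all genes tested, with 3 at an unadjusted p under 0.05, all lower in MUG-Chor1. They were H2BC14 (-2.26, adjusted p = 0.251), H2BC21 (-2.36, adjusted p = 0.431) and H2BC20P (-1.26, adjusted p = 0.635).

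A further 40 probe sets carry several symbols, all of them histone genes, and 38 of them have distinct values. The annotation does not say which of its genes each set reads. Each set is therefore given by its first symbol and number of symbols. When the 32 that passed the filter were added to the test, 12 were higher and 1 lower in MUG-Chor1 controls (18.9% of all features were called). Of the 12, the sets under H3C11, H2BC8 and H4C1 were under the filter on every U-CH1 array. They entered the test through MUG-Chor1 only. No fit without the filter was made for these sets, so no p-value is given for them. The widest gap was in an H3 set of 10 genes listed first under H3C11. It read 1.70, 2.05 and 1.18 in U-CH1 and 8.11, 8.87 and 8.59 in MUG-Chor1 controls. Every U-CH1 array was under the filter and every MUG-Chor1 array far above it, with the TNF arrays at 1.76 and 7.35. The deposited values differed by 6.87 on the log2 scale, which is no exact fold, since U-CH1 was in the dim range and no detection calls were used. The other tested H3 sets of 10 symbols did not share this gap. Those under H3C2, H3C6, H3C10 and H3C8 differed by -0.99, -0.38, -0.08 and 0.52 and were not called. Those under H3C1, H3C7 and H3C12 differed by 1.32, 1.45 and 1.46 and were called. An H4 set of 14 genes listed first under H4C13 read 2.71, 2.20 and 2.23 against 6.64, 6.92 and 6.47 (log2 4.30, adjusted p = 1.03e-06). The lines were again far apart, with 2 of the 3 U-CH1 controls under the filter. The 12 tested H4 sets ran from -0.64 (under H4C2, not called) to this 4.30, and 4 of them were called higher. An H2B set of 5 genes under H2BC8 differed by 2.03, with U-CH1 controls in the dim range at 1.62, 1.12 and 1.78.

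With TNF-α 1 of these 32 sets rose in U-CH1, an H2A set of 6 genes under H2AC12, from 4.53, 4.05 and 4.03 to 6.02 (log2 1.81, adjusted p = 0.0244; 1.28% of all features were called). The TNF value was well above the controls. In MUG-Chor1 1 set fell, under H3C12 (-1.23, adjusted p = 0.0498; 2.84%), and its TNF effect was lower there than in U-CH1 by 2.33 (adjusted p = 0.0378; 0.535%). Across both lines 1 of several H4 sets listed first under H4C15 rose, from 4.17, 4.38 and 4.65 to 5.99 in U-CH1 and from 3.64, 3.65 and 4.41 to 5.37 in MUG-Chor1 (1.53, adjusted p = 0.00990; 2.48%). In both lines its TNF array was above every control. The other tested H4 sets went in both directions across the lines, from -0.80 (under H4C2) to 0.92 (a different set under H4C15). None of those others was called.

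**Figure D5:**
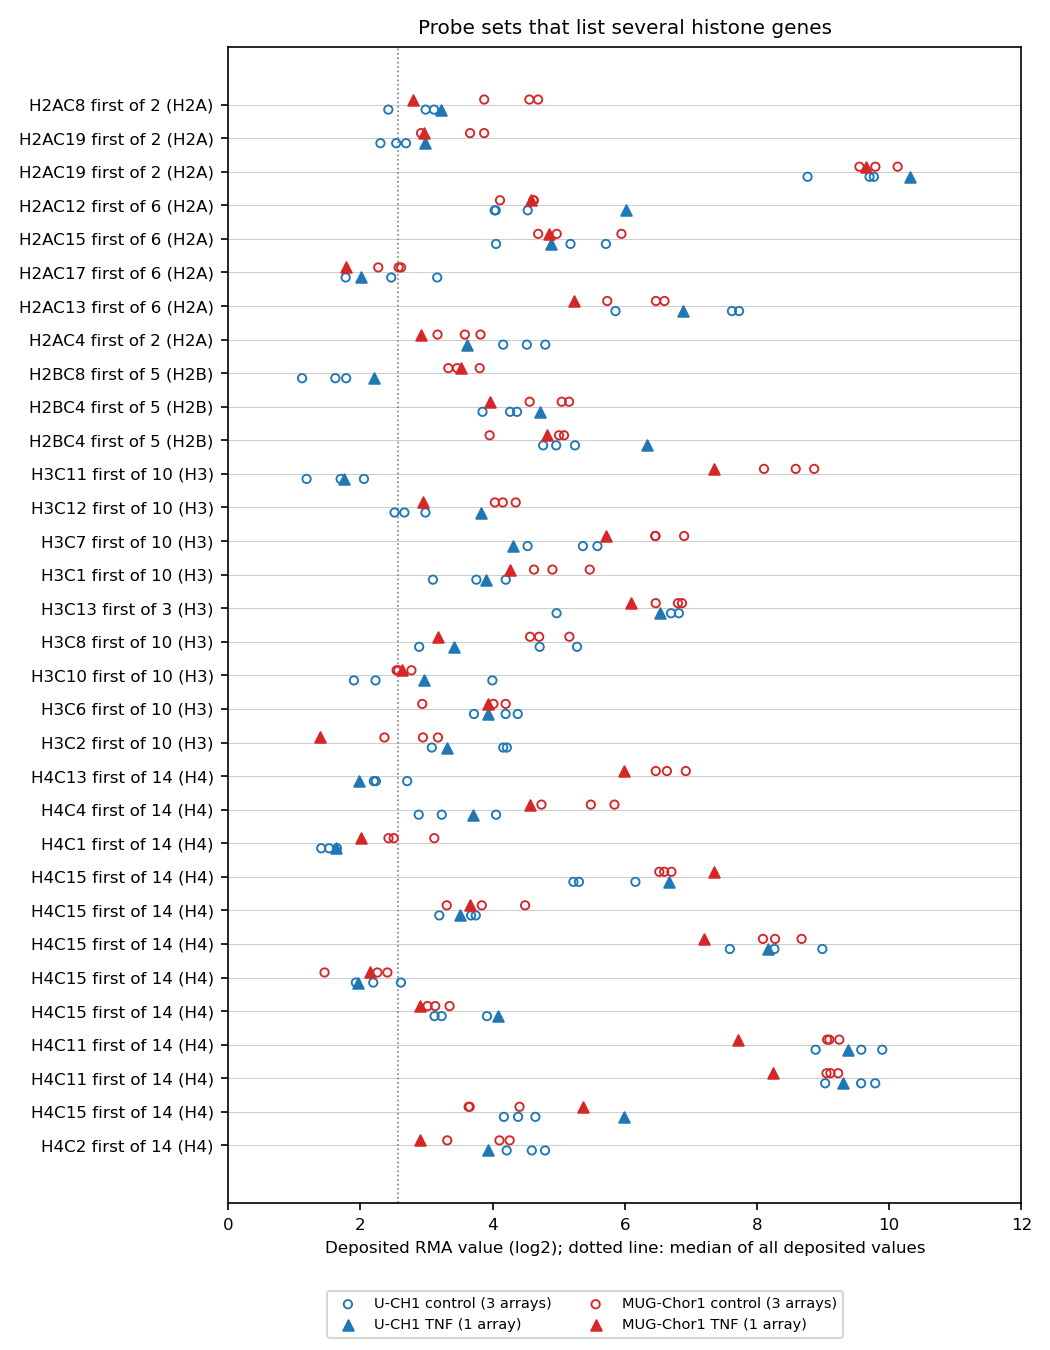
Deposited RMA values (x axis, log2) of the 32 histone probe sets with several symbols that passed the filter, named by first symbol and number of symbols, with open circles for controls and triangles for TNF arrays of each line. The H3C11 set of 10 and the H4C13 set of 14 show MUG-Chor1 far right of U-CH1.

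Genes that act on histone mRNA or protein were tested as lists beside the family. Of 18 tested genes for transcription and processing of histone mRNA 1 was higher in MUG-Chor1 controls and 2 were lower, and 0 were called in any TNF comparison. NPAT, the coactivator of the histone clusters, read 4.79, 5.09 and 5.21 in U-CH1 and 6.46, 6.29 and 6.31 in MUG-Chor1, with no overlap (log2 1.32, SE 0.19, adjusted p = 0.000977). Cyclin E1 (CCNE1), the partner of CDK2 that activates NPAT, was lower by 1.54 (adjusted p = 0.00101), and ERI1, an exonuclease that trims the stem-loop end, by 1.03 (adjusted p = 0.0321). Of 18 histone chaperones 0 were called in any comparison; in the control lines 3 were higher and 2 lower at an unadjusted p under 0.05. Of 8 replication-independent variant genes tested 2 were higher in MUG-Chor1 controls, H1-10 and MACROH2A2, a macroH2A that marks silent chromatin (0.97, adjusted p = 0.0107), and H1-10 was the one that fell with TNF-α there.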

How the data were processed

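The authors' deposited table holds 1 log2 value per probe set and array (53617 probe sets, 8 arrays), made with RMA and Transcriptome Analysis Console per the submitters' processing notes, which give no versions. No label states the log base; log2 is taken from the use of RMA and from the range of 0.0648 to 12.7. RMA usually equalises arrays, so a shift shared by all genes would not show. Probe sets were named from the supplied platform annotation: 23871 had 1 symbol, 1842 several, and 27904 were not listed. A RefSeq table (GRCh38.p14) updated 90 symbols. For the 632 genes with several probe sets the brightest on average was used. A gene entered the tests (16986 did) if 1 or more arrays read it above 2.57, the overall median of the table.

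Tests used limma 3.58.1 in R 4.3.3, two-sided, with Benjamini-Hochberg adjustment over all genes tested and a threshold of 0.05. Group means (4 residual degrees of freedom) gave the control-line, per-line TNF and difference contrasts; the single TNF array of a line was assumed to vary like the controls. An additive model (5 degrees of freedom) gave TNF across both lines. In simulated data over 16986 genes, 66% of genes changed by 1 log2 unit and 100% of those changed by 2 were recovered between control lines, and 17% and 99% in U-CH1 and 7% and 96% in MUG-Chor1 with TNF; the false shares of calls were 5.68%, 5.69% and 7.21%. The simulation was 1 draw of independent normal noise with 200 genes changed, whereas 3209 genes were called between the real control lines. Its 2 single-line TNF settings had the same design and variances, so 17% and 7% do not rank the lines. The members and gene lists were chosen with earlier results of these data known. The named genes were, per comparison and histone class, the 6 largest called differences or else the 2 with the smallest p, plus all somatic H1 genes, and up to 4 called genes per related list; other members are named from the values seen. The build behind the platform annotation was not known, so coordinates are those of RefSeq promoters only. Scan dates were not used here, and any batch shared by the TNF arrays cannot be told apart from TNF. No detection calls were used. The number of arrays limits the precision.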

Additional observations from a re-analysis of the deposited data

Results flagged for a closer look

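For 5 members the TNF array lay outside all 3 controls in both lines, above them in one line and below them in the other; 9.63% of all genes tested showed this. The difference of the TNF effects (MUG-Chor1 minus U-CH1, log2) was -2.36 for H2BC21 (adjusted p = 0.431), -1.39 for H3C13 (adjusted p = 0.821), -0.82 for H2BC11 (adjusted p = 0.739), 0.99 for H2AC1 (adjusted p = 0.760) and 0.84 for H2BC18 (adjusted p = 0.801), all from limma with 1 TNF array per line. None passed the test. H2BC21, H3C13 and H2BC11 were above the controls in U-CH1 and below them in MUG-Chor1, and H2AC1 and H2BC18 the other way round. Some margins were narrow: H3C13 with TNF-α read 2.23 in U-CH1 against a highest control of 2.20, and H2BC11 read 3.09 in MUG-Chor1 against a lowest control of 3.15.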

How the results depend on the processing

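The filter, probe sets, quantile normalization, variance model, array weights, threshold and model were varied, and single arrays were left out. Adding the 32 tested probe sets of several symbols to the 26 genes gave 23 calls between control lines, where the 26 alone gave 10. In both fits 18.9% of all features were called. With TNF the enlarged family gave 1 call in U-CH1 (0 before, 1.28% of all features) and 2 in MUG-Chor1 (1 before, 2.84%). It gave 1 for the difference (0.535%) and 1 across both lines (2.48%), with 0 before in each. Array weights gave 2 calls in MUG-Chor1, as did an adjusted p under 0.10, which gave 1 across both lines. The 4 MUG-Chor1 arrays alone gave 0. Leaving out 1 array at a time gave 7 to 10 calls between control lines, 0 to 0 in U-CH1 and for the difference, 0 to 2 in MUG-Chor1 and 0 to 1 across both lines. The median over members then ran from 0.12 to 0.29 between control lines, 0.018 to 0.14 in U-CH1, -0.22 to -0.16 in MUG-Chor1, -0.69 to -0.31 for the difference (-0.31 without U-CH1 control 2) and -0.16 to 0.084 across both lines (0.084 without the MUG-Chor1 TNF array). Across both lines H3C13 turned from -0.23 to 0.03 without MUG-Chor1 control 2 and to 0.47 without the MUG-Chor1 TNF array, and H2AC21 from -0.36 to 0.18 without the latter; over the arrays left out they ran from -0.92 to 0.47 and from -0.89 to 0.18. The cause was not tested.

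Whether the replicate numbers pair the 2 lines' controls is not known. Deviations of same-numbered controls correlated at 0.04, -0.06 and 0.16 over genes, and those of differently numbered controls at -0.15 to 0.14. Deviations from a line's own mean depend on each other, so these values cannot decide it. With the replicate number as a block, 10 members were called between control lines. Limits are the single TNF arrays, dim probe sets for many members, and probe sets of several symbols. For such sets the annotation does not say which of the named genes is read. Medians that differ between control arrays of a line, by an SD of 0.16, are a further limit.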

Other observations

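The 5 genes outside the family whose values ran most like the mean of the 26 tested members were GADD45B (Pearson r = 0.974), RNU5E-4P (0.956), TRIM41 (0.951), MATCAP1 (0.950) and TSIX (0.949). Each r is over 8 arrays of 2 lines, was the highest among 16960 genes compared, and is a description only.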
